A study of Drosophila melanogaster with 2 samples.

Results

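The genes described here carry the signal of receptor tyrosine kinases through Ras to the nucleus in Drosophila melanogaster, and the question was where the Smad protein Mad gave peaks at them. They are drk, Sos, Ras85D, csw, pnt and aop, 6 of the 13945 protein-coding genes on the main chromosome arms. Each was taken as its annotated span with 5 kb on each side, and a peak was counted for a gene when its summit, the highest base of the peak, lay there. A peak counted in this way can sit at the promoter of a neighbour, so the gene with the nearest transcription start site (TSS) is named for each thresholded peak of the 6 genes. Chromatin immunoprecipitation and sequencing (ChIP-seq) was done on whole embryos of both sexes, collected over 0 to 24 h of development, from a transgenic line that stably expressed Mad-eGFP, which is Mad with GFP fused to its C-terminus. An antibody against GFP was used on sonicated chromatin from 2 biological replicates. Both carried the fusion, and the series had no second genotype, treatment or stage to compare. The labels do not say which promoter drove the fusion or whether untagged Mad was also made. Few cells with strong binding and many cells with weak binding cannot be told apart in whole embryos, and a window of this length holds many tissues and stages.

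Signals from receptor tyrosine kinases such as the EGF receptor and Sevenless reach Ras through the adaptor Drk (the fly Grb2), which binds phosphorylated tyrosines through its SH2 domain and brings the exchange factor Sos to the membrane. Sos loads the small GTPase Ras85D with GTP, and the tyrosine phosphatase Corkscrew (Csw, the fly SHP2) acts with them to pass the signal on. Raf, the kinase MEK and the kinase ERK (Rolled) follow. At the end of the cascade stand ETS family transcription factors with opposite actions: Pointed (pnt) is an activator, and Anterior open (aop, also called Yan) is a repressor that competes for the same DNA sites until ERK phosphorylates it and it leaves the nucleus. Mad belongs to another pathway: receptors bound by Dpp, a fly bone morphogenetic protein, phosphorylate this Smad, which then binds DNA with its partner Medea.

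The peak lists hold 3590 peaks kept by the authors' reproducibility threshold, and 30000 peaks each for replicate 1, replicate 2 and both together (the pooled list). The signal of a peak is the authors' own value, and no unit is stated for it. Thresholded signals started at 70.5 and had a median of 106. The sources used here do not state the read depth. All positions are in build dm6.

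Of the 6 genes, 5 had at least 1 thresholded peak, and Sos had none. The same rule was met by 45.8% of all protein-coding genes. The 6 genes had 16 thresholded peaks in all, of which pnt had 6, aop 5, drk and Ras85D 2 each, and csw 1. At least 5 thresholded peaks were counted for 0.76% of protein-coding genes, and pnt and aop were the 2 of the 6 that reached this number. The number depends on the counting rule: aop had 3 with 1 kb on each side in place of 5 kb and 4 in the 3590 strongest peaks of replicate 1 alone. When only summits with an own TSS as the nearest were counted, pnt had 2 and aop 4. With protein-coding TSSs alone, a rule chosen after seeing the data, each had 5. The signals of the 16 peaks ran from 71.3 to 265 with a median of 91.9, and 7 of them lay above the median of the thresholded list. The strongest stood at aop (265), followed by another at aop (188), then drk (170), pnt (152) and Ras85D (134). By the 5 kb rule, the adaptor, the GTPase, the phosphatase and both ETS genes thus each had a thresholded peak, and the exchange factor had weaker ones. Both peaks counted for the GTPase gene Ras85D had the TSS of another gene as the nearest.

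**Figure D1:**
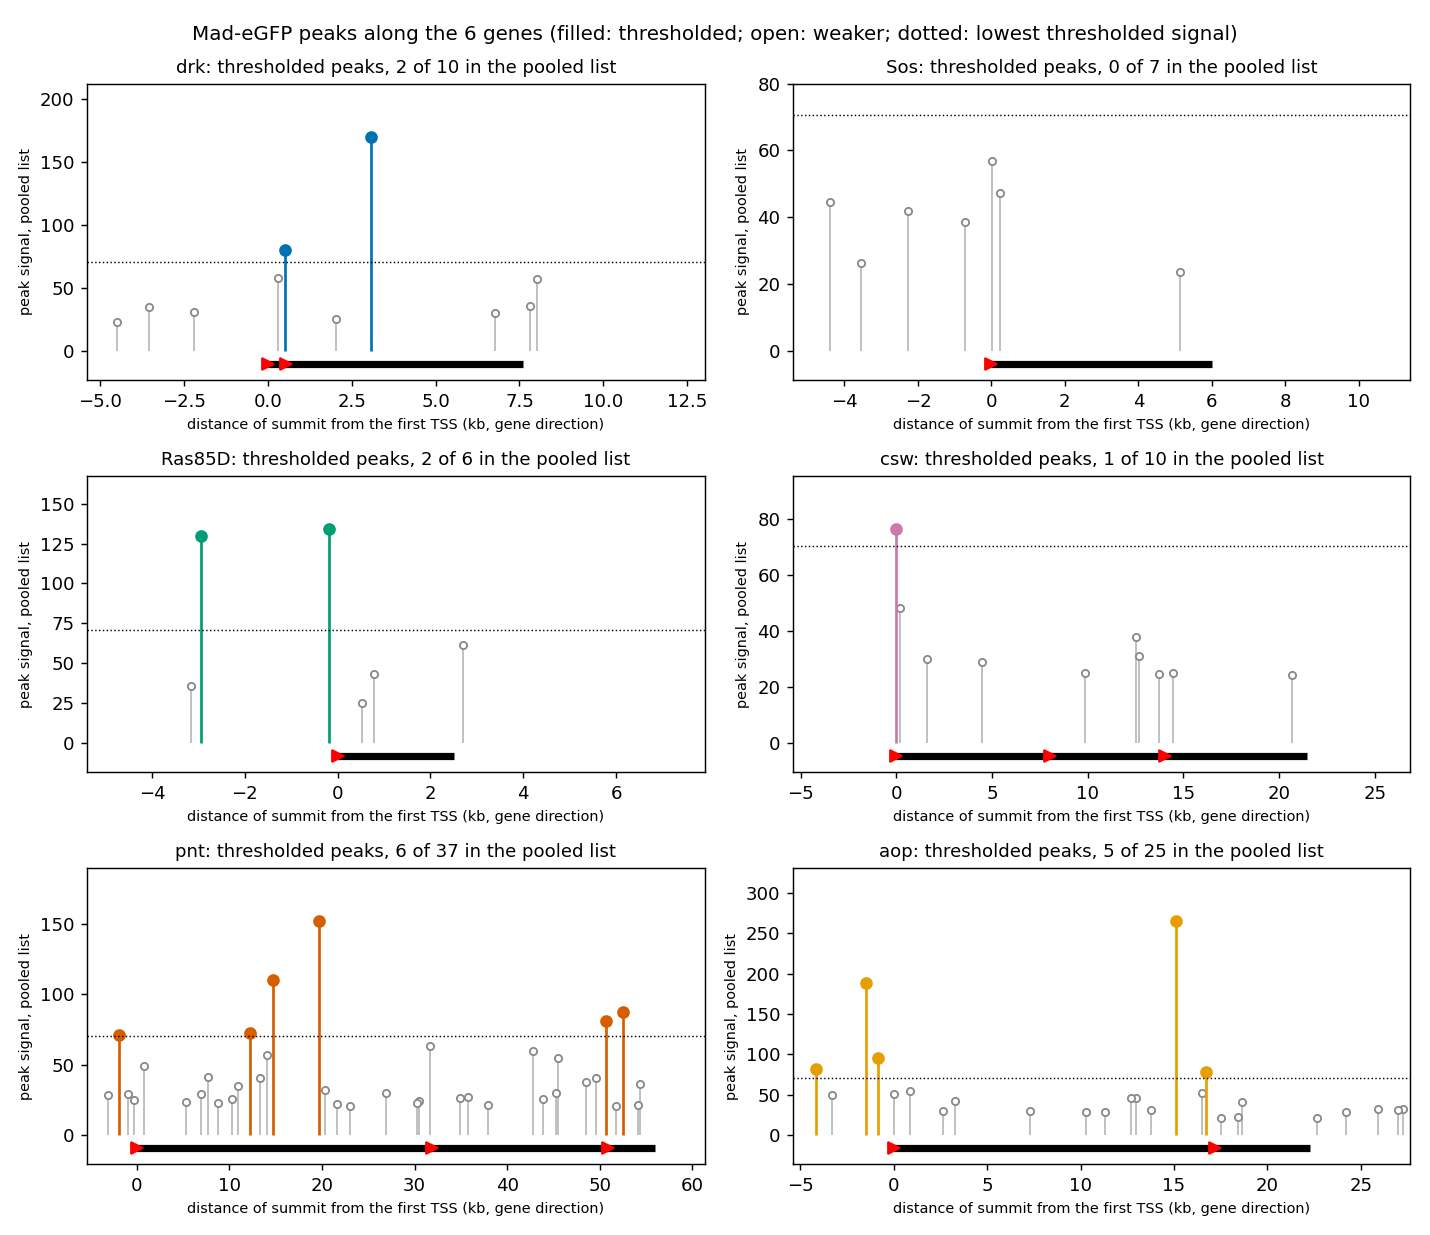
Summits of the pooled list along drk, Sos, Ras85D, csw, pnt and aop, by distance from the first TSS in the direction of the gene (kb) and by peak signal. Filled points are thresholded peaks, open points weaker ones, the dotted line the lowest thresholded signal (70.5), the black bar the gene and the red triangles its TSSs; the panels for pnt and aop hold 6 and 5 filled points and that for Sos holds none.

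A thresholded summit lay within 500 bp of an own TSS at drk, Ras85D, csw and pnt, which is 4 of the 6 genes beside 19.7% of protein-coding genes. When a peak was counted only for the gene whose TSS was nearest among all annotated genes, drk, csw, pnt and aop kept at least 1, beside 18.1% of protein-coding genes. Under that rule Ras85D lost both of its peaks. The genes differ in length, and longer genes offer more room for peaks: pnt spans 55937 bp, aop 22271 bp, csw 21468 bp, drk 7620 bp, Sos 6009 bp and Ras85D 2507 bp. Among the 260 genes at least as long as pnt, 20 (7.69%) had 6 or more thresholded peaks and the median was 1. Among the 913 genes at least as long as aop, 48 (5.26%) had 5 or more. csw is nearly as long as aop but had 1 peak, and 574 (60.1%) of the 955 genes of at least its length had 1 or more.

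**Figure D2:**
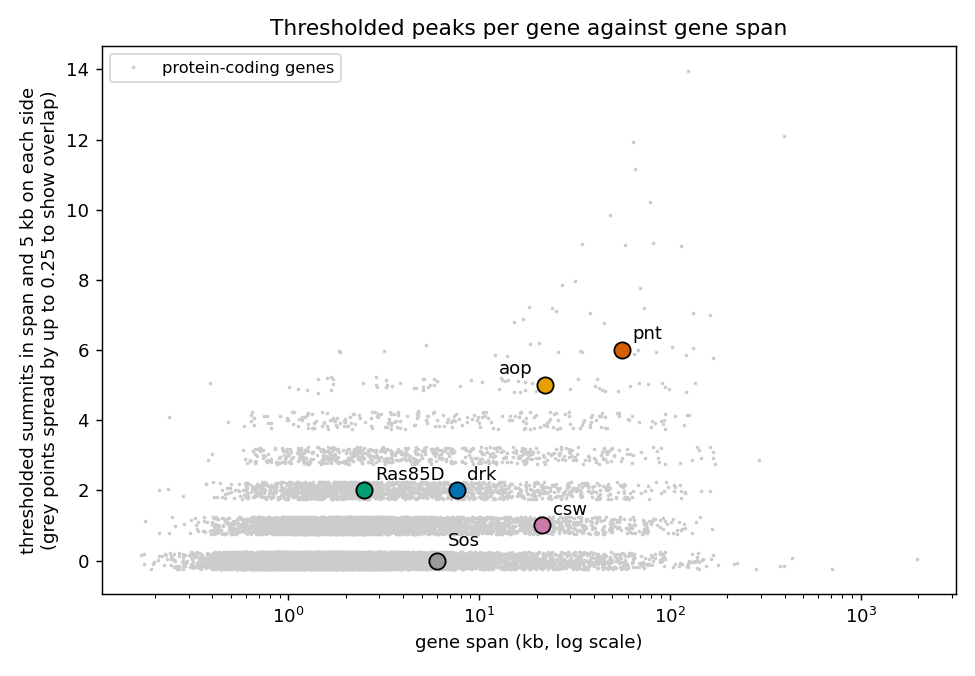
Thresholded summits per protein-coding gene, counted in the span and 5 kb on each side, against gene span (kb, log scale). Grey points are protein-coding genes, spread vertically by up to 0.25 for visibility, and coloured points are the 6 genes; pnt (6) and aop (5) stand above most genes of their length, and csw (1) and Sos (0) do not.

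The adaptor gene drk (FBgn0004638, minus strand of arm 2R, 13495222 to 13502841) had 2 thresholded peaks, both within the gene. The stronger had its summit at 13499772, in intron 2 of 4 of the 5 annotated transcripts and intron 1 of drk-RD. It was a narrow peak of 114 bp (13499679 to 13499792) with a pooled signal of 170, beside 66.3 for replicate 1 and 104 for replicate 2 in their own lists. The nearest TSS was not one of drk but that of mars, a gene for a mitotic spindle protein, 849 bp away. The weaker peak, 13502147 to 13502542, had its summit 52 bp upstream of the TSS of drk-RD (13502293) and in intron 1 of the other 4 transcripts. Its pooled signal was 79.9, with 33 in replicate 1 and 45.3 in replicate 2. A strongest peak at least as high as that of drk was found at 13.7% of protein-coding genes. The other 8 pooled peaks of drk had signals of 22.7 to 58, and the highest of these was a second summit 260 bp upstream of the same TSS.

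The exchange factor gene Sos (FBgn0001965, plus strand of arm 2L, 13813816 to 13819824) had no thresholded peak but 7 in the pooled list. The strongest had a signal of 56.9 and ranked 5046 of 30000. Its summit lay 24 bp downstream of the only annotated Sos TSS. Replicate 1 gave it a signal of 35.8 (rank 3178) and replicate 2 one of 23.3 (rank 8574). Sos would therefore have been within the 3590 strongest peaks of replicate 1 but not within those of replicate 2. A second summit 241 bp downstream of the TSS had a pooled signal of 47.2 and overlapped the same peak in each replicate. The other 5 had signals of 23.6 to 44.6, and 4 of them lay upstream of Sos at or near Adat1, CG16865 and CG16888. A strongest peak of at least 56.9 was found at 54.2% of protein-coding genes.

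The GTPase gene Ras85D (FBgn0003205, minus strand of 3R, 9510561 to 9513067) had 2 thresholded peaks, both outside the gene on its upstream side. The first, 9513064 to 9513459, lay between Ras85D and the gene Rlb1, which is transcribed in the opposite direction from a TSS 260 bp away. Its summit was 195 bp upstream of the Ras85D TSS and 65 bp upstream of that of Rlb1. The pooled signal was 134, with 59.1 in replicate 1 and 74.7 in replicate 2. A peak there cannot be given to either gene alone. The second, 9515810 to 9516205, had its summit 1 bp from a TSS shared by CG8176 and Kdm3, a gene for a histone demethylase, and 2941 bp from Ras85D. Its pooled signal was 130, with 57.8 and 77.9 in replicates 1 and 2. The strongest pooled peak with an own TSS as the nearest was 43.3, 775 bp downstream of the Ras85D TSS, and it had no overlapping peak in replicate 2. A peak of 61.1 just past the 3′ end of Ras85D lay 35 bp upstream of the TSS of rump, an RNA-binding protein gene. The shared promoter sequence is given because it is the site through which Ras85D counts as having a peak at its own promoter. The plus strand of chr3R:9513162-9513326 is printed, without transcribed ends, and the capitals mark a match to the 4-letter Smad box (GTCT or its complement AGAC).
Ras85D and Rlb1 promoter: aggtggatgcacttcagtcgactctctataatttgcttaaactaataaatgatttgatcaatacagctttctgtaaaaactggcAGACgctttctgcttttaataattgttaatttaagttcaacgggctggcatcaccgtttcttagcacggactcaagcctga

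The phosphatase gene csw (FBgn0000382, plus strand of X, 2094234 to 2115701) had 1 thresholded peak, 2094014 to 2094409, at its first TSS. The summit was 22 bp upstream of that TSS, the closest of the 16 peaks to an own TSS. The pooled signal was 76.4, with 28.9 in replicate 1 and 45.2 in replicate 2. This rank, 3158 of the 3590 thresholded peaks, is near the lower end of the list, and the peak ranked 4782 in replicate 1. The other 9 pooled peaks had signals of 24.1 to 48.4 (median 29.1). The TSS at 2108249 had weak summits 284 bp upstream (24.6) and 447 bp downstream (25.1), each found in replicate 1 alone. The TSS at 2102289 had none within 500 bp in the pooled list. A strongest peak of at least 76.4 was found at 42.5% of protein-coding genes. The plus strand of chrX:2094112-2094233, up to the base before the TSS, is given as the promoter with the summit nearest to its own TSS, with a Smad box in capitals.
csw promoter: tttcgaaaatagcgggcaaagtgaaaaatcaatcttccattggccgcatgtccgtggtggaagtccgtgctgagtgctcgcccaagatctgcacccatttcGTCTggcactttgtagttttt

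The activator gene pnt (FBgn0003118, minus strand of 3R, 23290231 to 23346167) has 3 annotated TSSs and had 6 thresholded peaks. As many were counted for 0.301% of protein-coding genes. Of the 6, 5 lay within the gene, and they fell into 3 places: a pair at the TSS of the short transcripts pnt-RC and pnt-RE, 3 in intron 3 of the long transcript pnt-RB, and 1 upstream of the gene. The strongest lay in intron 3, at summit 23326545 (23326347 to 23326742), 12230 bp upstream of the pnt-RD TSS. Its pooled signal was 152, with 62.2 in replicate 1 and 81.3 in replicate 2. The other peaks in intron 3 were at 23331480 (110, with 57.6 and 50.5 in replicates 1 and 2) and 23333981 (72.4, with 39.1 and 26.5). These 2 were higher in replicate 1, unlike the strongest. The 3 summits lay within 7436 bp, and the last was 178 bp upstream of the TSS of the long non-coding RNA gene CR46090 inside pnt, the nearest TSS to all 3.

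At the short transcripts of pnt, the peak 23295254 to 23295649 had its summit 214 bp upstream of the TSS at 23295238 and a pooled signal of 81.1, with 37.3 and 40.5 in replicates 1 and 2. The peak 23293396 to 23293791 had its summit 1644 bp downstream of that TSS, in intron 1 of both short transcripts, and a pooled signal of 87.8, with 37.9 and 51.9. Both positions are also within introns of the longer transcripts. The peak upstream of the gene, 23347890 to 23348285, had a pooled signal of 71.3, the lowest of the 16, with 27.6 and 46.7 in replicates 1 and 2. Its summit was 40 bp upstream of the TSS of PolE1, a DNA polymerase epsilon subunit gene, and 1921 bp upstream of the TSS of pnt-RB. The TSS of pnt-RB itself had a pooled summit of 24.8 within 500 bp, with no overlapping peak in replicate 1, and one of 48.9 at 755 bp downstream. The TSS of pnt-RD had a summit 213 bp upstream with a signal of 63.5, just below the threshold, with 19.4 and 43.5 in replicates 1 and 2. Of the 3 pnt start sites, that of the short transcripts was thus the only one with a thresholded summit within 500 bp, and the pooled signals at the others were lower. The replicates differed in this order: in replicate 2 the pnt-RD summit (43.5) was higher than that of the short transcripts (40.5).

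Sequences of the strongest pnt peak and of the pnt-RC and pnt-RE promoter peak are given, because both places carry the thresholded peaks of pnt. They are the plus strand of chr3R:23326445-23326645, with a Smad box in capitals, and of chr3R:23295352-23295552. In the promoter the capitals mark a GC-rich Mad site (GCCGNC, here on the minus strand, 11 bp from the summit) and 2 GAGA elements (GAGAGAG or its complement).
pnt intron 3: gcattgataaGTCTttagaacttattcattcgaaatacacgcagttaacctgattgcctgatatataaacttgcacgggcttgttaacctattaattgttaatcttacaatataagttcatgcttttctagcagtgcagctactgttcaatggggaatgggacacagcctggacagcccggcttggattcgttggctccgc
pnt short promoter: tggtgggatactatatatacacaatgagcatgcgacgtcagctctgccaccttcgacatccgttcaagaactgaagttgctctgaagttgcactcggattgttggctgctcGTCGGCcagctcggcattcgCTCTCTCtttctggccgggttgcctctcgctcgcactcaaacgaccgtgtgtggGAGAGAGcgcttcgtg

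The repressor gene aop (FBgn0000097, minus strand of 2L, 2156484 to 2178754) has 2 annotated TSSs, 2178754 for the transcripts RB, RC and RE and 2161527 for RA and RD. It had 5 thresholded peaks, 3 upstream of the gene and 2 in the intron between the TSSs. The strongest of all 16 peaks was in the intron, at summit 2163638, and was narrow (193 bp, 2163579 to 2163771). Its pooled signal was 265, with 116 in replicate 1 and 141 in replicate 2, and it ranked 256 of 3590. It lay 2111 bp upstream of the TSS of aop-RA and aop-RD. A strongest peak of at least this signal was found at 5.75% of protein-coding genes. The other intron peak, 2161846 to 2162241, had its summit 517 bp upstream of the same TSS, just past the distance of 500 bp used for promoters. Its pooled signal was 78.5, with 32.2 and 43.5 in replicates 1 and 2.

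Upstream of aop, the summit at 2180233 had a pooled signal of 188, with 83.3 and 110 in replicates 1 and 2. It was 113 bp wide (2180186 to 2180298) and lay 1479 bp upstream of the first aop TSS. The peak 2179421 to 2179816, 865 bp upstream of that TSS, had a pooled signal of 96, with 44.4 and 46 in replicates 1 and 2. These 2 summits were 614 bp apart and intergenic. The peak 2182747 to 2183142 had a pooled signal of 81.8, with 41.6 and 40.9. Its summit lay in an exon of the long non-coding RNA gene CR43751, 4191 bp upstream of aop. Of the 5, 4 thus had an aop TSS as the nearest one. The first aop TSS itself had a weaker summit of 50.8 at 10 bp downstream, with 17.6 and 33.6 in replicates 1 and 2.

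Among the 16 windows of 201 bp around the summits, every pair (120) was compared for the longest run of bases shared with at most 1 mismatch, and the longest was found between the 2 intron peaks of aop. It had 19 bases, TTGGCGCCCACTGTGGGGC in the peak nearer to the TSS and TTGGCGCCCACCGTGGGGC in the strongest peak. It began 88 bp before the summit in the former and 15 bp after it in the latter, with 1697 bp between the starts. The run holds GGCGCC, the site of the Dpp pathway repressor Brinker (Brk). Allowing any base at the 1 differing position, it was found at 2 places on the main arms on either strand, both of them these aop peaks. The run was chosen as the longest after the windows had been compared. With 18 fixed letters taken from these 2 peaks, it had little room to match elsewhere, so both results are a description. The sequences are the plus strand of chr2L:2161944-2162144 and, for the narrow peak in full, chr2L:2163579-2163771, with the shared run in capitals.
aop intron, weaker: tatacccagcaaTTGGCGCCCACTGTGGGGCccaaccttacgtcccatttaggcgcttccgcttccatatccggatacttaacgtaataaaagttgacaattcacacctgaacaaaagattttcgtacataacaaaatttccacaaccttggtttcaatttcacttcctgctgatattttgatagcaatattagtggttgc
aop intron, strongest: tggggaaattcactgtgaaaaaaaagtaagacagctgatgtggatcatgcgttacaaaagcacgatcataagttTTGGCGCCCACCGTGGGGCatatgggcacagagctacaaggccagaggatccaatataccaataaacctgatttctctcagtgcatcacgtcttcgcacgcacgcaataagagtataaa

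The 16 peaks held matches to several short motifs within 100 bp of the summit, sought on both strands, and are set beside the same windows of all 3590 thresholded peaks. The GC-rich Mad site GCCGNC occurred in 3 of 16, at the drk promoter, the pnt-RC and pnt-RE promoter and the PolE1 promoter near pnt. It occurred in 15.3% of all thresholded peaks and in 7 of the 32 flanking windows of the 16 peaks, centred 600 bp to each side. Among the flanks of all thresholded peaks its share was 25.1%. The Smad box GTCT was present in 8 of 16, beside 53.4% of all peaks, 59.1% of all flanks and 19 of the 32 flanks. Over the whole list, both were thus less frequent at summits than in flanks, so a match alone does not mark a summit. The Brk site GGCGCC occurred in 3 of 16, beside 4.57% of all peaks, 3.9% of all flanks and 1 of the 32 flanks. These 3 were both intron peaks of aop and the PolE1 promoter near pnt. The matches in the aop peaks both lie in the run of bases that these peaks share, so they are not independent of each other. The Brk site can overlap a GC-rich Mad site, but no match of the 2 overlapped in these windows. GAGAGAG was present in 2 of 16 and in 3.9% of all peaks. The letters TATCGATA (the DREF site, 6.16% of all), GGTCACACT (M1BP, 3.15%), CAGGTAG (Zelda, 0.78%) and GTCTAGAC (0.0836%) were not in the 16 windows, nor were the ETS letters CCGGAA (4.74%) and the longer CCGGAAGT (0.474%). GC content in the windows had a median of 40.5% (30.3 to 55.2), beside 36.8% for all thresholded peaks. A promoter, meaning any annotated TSS within 500 bp, held 7 of the 16 summits (43.8%, beside 60.8% of all). Introns held 6 (37.5%, beside 26.8%), intergenic sequence 2 and a non-coding exon 1. Most thresholded peaks were 396 bp wide, and 12.9% were narrower, with a higher median signal (269 beside 98.7). Of the 16, 3 were narrower, which are the strongest of drk and the 2 strongest of aop.

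The pooled list, which includes the thresholded peaks, held 95 peaks at the 6 genes, 79 of them below the threshold. Closely spaced summits of the pooled list can overlap 1 peak of a replicate, so these are summits and not separate sites. Per 10 kb there were 7.75 at aop, 5.68 at drk, 5.61 at pnt, 4.8 at Ras85D, 4.37 at Sos and 3.18 at csw, and the median protein-coding gene had 3.3. As high a density as at aop was found at 4.19% of genes, and as high a one as at csw at 51.7%. Thresholded peaks per 10 kb came to 1.6 at Ras85D, 1.55 at aop, 1.14 at drk, 0.91 at pnt, 0.318 at csw and 0 at Sos. By this measure pnt, with the most peaks, was matched or passed by 18.8% of genes, and aop by 10.2%. Both densities were taken over the span with 5 kb on each side, which for a short gene is mostly flank. Ras85D spans 2507 bp of its 12.5 kb, and both of its thresholded peaks lay outside the gene with another TSS nearest. Some of the Sos summits also lay at neighbours. The genes thus stood in another order by density than by strongest peak, since Sos without a thresholded peak had more pooled summits per 10 kb than csw. At the threshold, the lowest peaks that passed were the PolE1 peak near pnt (71.3), the intron 3 peak of pnt at 23333981 (72.4) and the csw promoter (76.4). The highest that did not were at the pnt-RD promoter (63.5), the rump promoter (61.1) and 8144 bp upstream of the pnt short TSS (59.9).

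All 16 peaks overlapped a peak in each replicate, as did 3585 of the 3590 thresholded peaks. The signal was higher in replicate 2 at 13 of 16 (81.2%), beside 75.7% of all, so the difference between replicates at these genes goes with one over the whole list. The log2 ratio of replicate 2 to replicate 1 had a median of 0.40 (SD 0.34 over the 16 peaks, range -0.56 to 0.76), and over all thresholded peaks a median of 0.28 (SD 0.46). The 3 peaks higher in replicate 1 were those of pnt at 23331480 (-0.19) and 23333981 (-0.56) and the aop peak in CR43751 (-0.02). When each replicate's list was limited to its strongest 3590, 11 of the 16 appeared in both lists (68.8%, beside 74.7% of all). The weaker drk peak, the csw peak, the PolE1 peak and the weaker intron peak of aop were not among those of replicate 1, and the pnt peak at 23333981 was not among those of replicate 2. The peaks that ranked within the strongest 1000 of the thresholded list, which are the strongest of drk and of pnt and 2 of aop, were among the strongest 3590 of both. With 2 replicates and 1 group, no difference could be tested over samples.

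**Figure D3:**
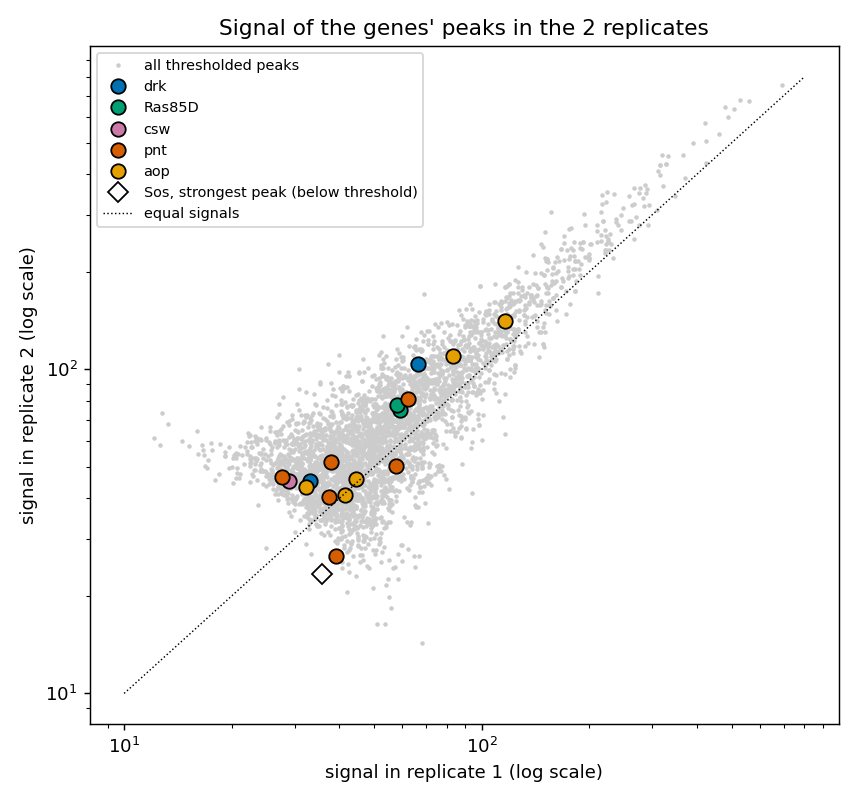
Signal of each peak in replicate 1 against replicate 2 (both log scales). Grey points are all thresholded peaks, coloured points the 16 at drk, Ras85D, csw, pnt and aop, the open diamond the strongest Sos peak and the dotted line equal signals; 13 of the 16 lie above the line, and Sos (35.8 and 23.3) lies below it.

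The rest of the pathway was described from 45 other genes in 7 lists. At least 1 thresholded summit was counted for 28 of the 45, beside 45.8% of protein-coding genes, and 13 had one within 500 bp of an own TSS, beside 19.7%. Upstream of Ras, 7 of 12 genes of the EGF receptor, its ligands and feedback regulators had one. The ligand gene spi had 4, the strongest of 330 (152 and 180 in replicates 1 and 2) at 170 bp upstream of its TSS. The gene of the secreted inhibitor aos had one of 315 and the gene of the ligand-trafficking protein S one of 278, both in introns, while Egfr (68.2) and rho (70), the gene of a ligand-processing protease, stayed just below the threshold. Of 7 other receptor tyrosine kinase genes, 3 had one: InR, the insulin receptor gene (297), htl, an FGF receptor gene (75.2), and Pvr, a PDGF and VEGF receptor homologue (70.7).

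Beside drk, all 5 further genes in the list of adaptors and docking proteins had a thresholded peak, by a rule that 45.8% of protein-coding genes met. They were stumps, Shc, dos, Src42A and spri. The list was drawn broadly, since Src42A is a tyrosine kinase gene and spri a gene for a Rab exchange factor. Of these 5, 3 had a thresholded peak with an own TSS as the nearest, beside 18.1% of protein-coding genes. The strongest peak of the 5 genes was 605 (259 and 344 in replicates 1 and 2) at Shc, a phosphotyrosine adaptor gene, 123 bp upstream of its own TSS. The strongest peak of dos, a docking protein gene and substrate of Csw, was 187 and lay at the promoter of the ribosomal protein gene RpL8, and that of spri was 162, 455 bp upstream of its own TSS. Among 5 genes of Ras regulators and Ras-like GTPases, 3 had one, with the highest at RasGAP1 (371, 634 bp upstream of its TSS). The strongest peaks of Nf1 (187) and Rap1 (157) lay at the promoters of CG43116 and CG12024. Of 7 MAPK cascade genes, 5 had one: Raf had 10 summits with a strongest signal of 449 in an intron, and the others were cnk (286), Mkp3 (120), ksr (107) and Dsor1, the MEK gene (103). Of these, Raf and Mkp3 had an own TSS as the nearest to the strongest peak, while those of cnk, ksr and Dsor1 stood at the promoters of l(2)k01209, of CG45100 and HDAC3, and of Larp7. Mkp3 was the 1 of the 7 with a thresholded summit within 500 bp of an own TSS. The 10 summits of Raf were counted in its span and 5 kb on each side. How many of them had a Raf TSS as the nearest was not examined. At least 5 by that rule were counted for 0.76% of protein-coding genes. The ERK gene rl had no peak in the pooled list, but it lies close to the centromere, and how well reads map there was not checked. Of the nuclear genes, edl, which encodes a protein that binds both Pointed and Yan, had 418 (194 and 222 in replicates 1 and 2) and the repressor gene cic 173, and ttk (66.7) had none. Of 6 other ETS genes, 3 had one, each strongest at a neighbour's promoter: Ets65A (235, at loj), Ets96B (161, at CG5805) and Eip74EF (89.2, at Vps60). The strongest peaks of pnt and aop stood in their own introns instead. The TSS nearest to that of aop was its own, but nearest to that of pnt was the TSS of CR46090, 7258 bp away.

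**Figure D4:**
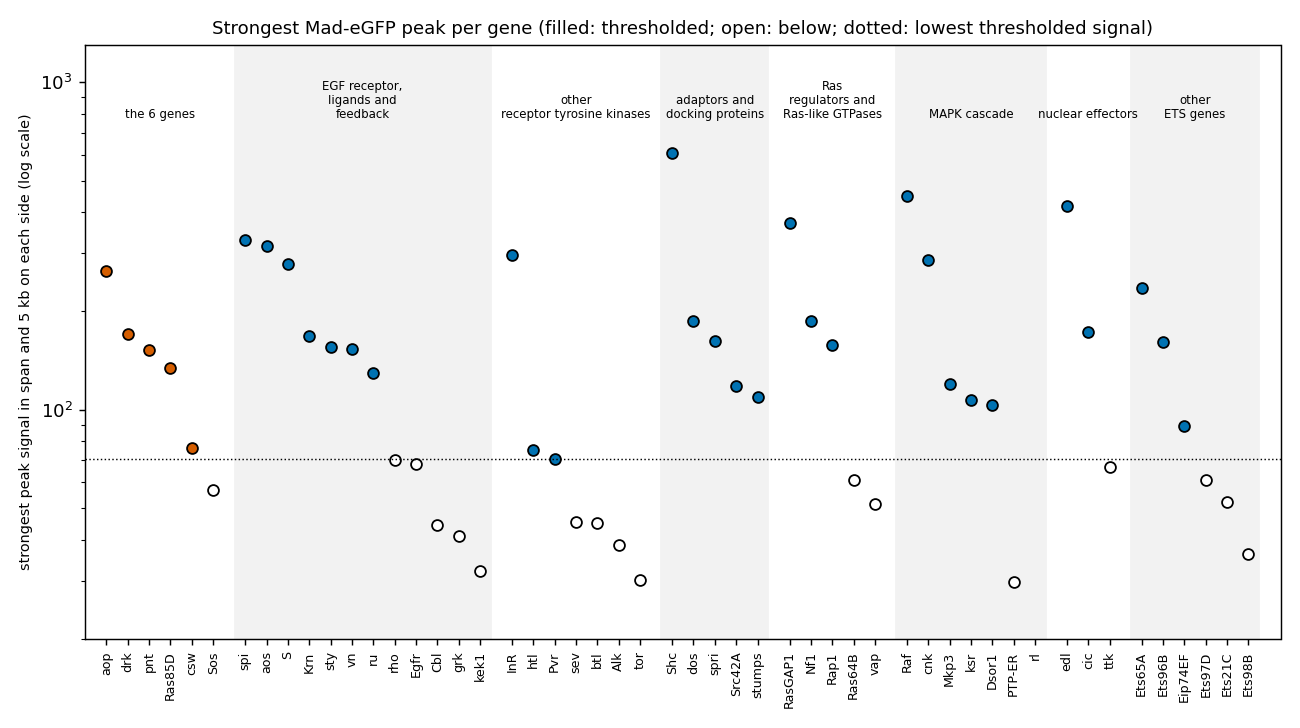
Strongest peak signal (log scale) of each gene in its span and 5 kb on each side, by list. Filled points are thresholded peaks, open points weaker ones and the dotted line the lowest thresholded signal (70.5). The gene rl has no point. The highest of the 6 genes is aop at 265, below the highest of all, Shc (605), Raf (449) and edl (418), and below several others such as RasGAP1 (371) and spi (330).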

How the data were processed

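ChIP-seq of embryos with the Mad-eGFP fusion, in 2 replicates of 1 group, was described from the deposited peak lists in dm6. Per the labels and the deposited text files, the authors made a list of peaks per replicate, a pooled list and a list thresholded on the irreproducible discovery rate. No aligner, peak caller, version or read depth is stated in the sources used here, and the control was not used. The signal of each peak is the deposited value of the authors' caller, used only to describe and rank peaks within a list and to set the replicates side by side. A signal on the pooled list is therefore not on the scale of 1 replicate. The summit is the deposited peak start plus the summit offset, counted from 1.

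Genes, transcripts and places came from Ensembl release 115 without changes to coordinates, and bases from the release 6 genome sequence of RefSeq, whose arm lengths match dm6. A place was a promoter within 500 bp of any annotated TSS, and otherwise a UTR, coding exon, other exon, intron or intergenic. A replicate's value is its highest peak overlapping by at least 1 bp. Motif windows were 201 bp. Printed windows leave out annotated UTR bases. No test was run, since 1 group of 2 replicates has no comparison over samples, and the main counts stand beside shares of all 13945 protein-coding genes or 3590 peaks. Counts of genes with a thresholded summit in single pathway lists follow the rule met by 45.8% of protein-coding genes.

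The 6 genes and the lists were chosen with earlier results of these data known. Genes named are these 6, neighbours with the nearest TSS, and up to 3 other pathway genes per list with the strongest peak. Egfr, rho, rl, ksr, Dsor1, stumps and Src42A fall outside this rule and were named after their values were seen. The symbols sprint, phl and Gap1 were updated to spri, Raf and RasGAP1, and Gap1 and RasGAP1, the same gene, were counted once. Alternatives were other span extensions, promoter distances, peak numbers, single replicates, overlap rules and motif windows. The counting and motif steps were tested on simulated data. Python 3.11.15, numpy 2.4.6, pandas 2.3.3 and matplotlib 3.10.9 were used.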

Additional observations from a re-analysis of the deposited data

How the results depend on the processing

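Shares in brackets are of all protein-coding genes under the same rule. Of the 6 genes, 5 had a summit with spans extended by 1 kb (28%) or 10 kb (59.2%), and in the 3590 strongest peaks without replicate 1 (45.2%) or replicate 2 (46.2%), though not always the same genes: without replicate 2, Sos had 1 peak and csw none. With 1 kb there were 12 peaks, 3 of them at aop, and with 10 kb 19 peaks, whose median signal was 110 instead of 91.9. Counting only summits with an own TSS as the nearest left 4 genes (18.1%) and 8 peaks with a median of 84.4, and by protein-coding TSS, chosen after seeing the data, 4 genes (18.9%) and 12 peaks with 84.8. In the former pnt fell from 6 peaks to 2, aop from 5 to 4 and Ras85D from 2 to 0, so 0 of the 6 genes had 5 or more (0.158%). By protein-coding TSS, pnt and aop had 5 each, and Ras85D 0. At least 5 were then counted for 0.201% of protein-coding genes. The strongest pooled signal with an own TSS as the nearest was lower at drk (79.9 instead of 170), pnt (87.8 instead of 152) and Ras85D (43.3 instead of 134). It was the same at the other 3 genes. The 1000 strongest peaks left 3 genes (18.2%) with 4 peaks, 1 at pnt and 2 at aop, a median of 179 and 0 genes with a peak within 500 bp of an own TSS (6.5%). As many peaks again from the pooled list gave 6 genes (62.8%), 33 peaks and a median of 63.5. Leaving out a replicate gave 14 to 17 peaks, medians of 46.7 to 51 on the scale of 1 replicate, and 3 to 5 genes with a peak within 500 bp of an own TSS (19.5% to 19.8%). Without replicate 2, aop had 4 peaks and drk 1. Promoter distances of 250 and 1000 bp gave 4 (16.6%) and 5 (22.4%). Replicates overlapped by at least 50% of each peak at 13 of the 16 peaks, and their summits lay within 100 bp at 16. A motif sought, other than the 4-letter Smad box, was in 5 peaks within 100 bp of the summit, 4 within 50 bp and 9 within 200 bp. The same count was not made over all thresholded peaks, and wider windows leave more room for matches. These counts therefore show only how the result depends on the window. Unknown depth limits what a missing peak shows. No paired analysis was possible because there is 1 group.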
